A study of Caenorhabditis elegans with 2 samples.

Results

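The autosomal intronic peaks of NHR-85 are sites of the nuclear hormone receptor NHR-85 that lay in introns of *Caenorhabditis elegans* genes, outside the promoter of any annotated start. They were chosen from the deposited peak list that had passed the irreproducible discovery rate (IDR) threshold on the ce11 genome. A peak was taken if it was not on X and if its summit was in an intron of a protein-coding transcript. The summit also had to lie outside all exons and outside promoters, which covered the 1000 bp before and the 200 bp after each transcript start. The rule took 216 of 2404 distinct peaks, and 216 of the 1886 autosomal peaks (11.5%, 95% Wilson interval 10.1 to 13.0). Beyond membership in that thresholded list, only position entered the rule. The list selects for reproducibility and its smallest pooled signal was 97.2, so the choice limits the signal and replicate agreement of members. The count depended on the promoter width, and 139 peaks were left when 2000 bp upstream were set aside.

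The peaks came from chromatin immunoprecipitation and sequencing (ChIP-seq) of whole hermaphrodite L1 larvae of strain OP539, 6 h after synchronization. OP539 has the genotype unc-119(tm4063) III; wgIs539 and carries NHR-85 with GFP and FLAG tags at its C-terminus, and the DNA was recovered with an antibody against GFP. The larvae were starved after bleaching, and there were 2 biological replicates of 1 condition, with a control alignment but no untagged strain. Sites that depend on GFP alone cannot be told apart from sites of the receptor, and in whole larvae a weak site in all cells cannot be told apart from a strong site in few. The lists hold no read numbers, so depth is unknown.

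In mammals the closest relatives of NHR-85 are the Rev-Erb receptors, which bind a single copy of the receptor element AGGTCA with an A- and T-rich flank and repress transcription by recruiting corepressors. In worms the receptor has been studied in the timing of larval development, together with NHR-23, the homologue of the ROR receptors that share the Rev-Erb site. Introns of *C. elegans* genes are mostly short. The long ones, often the first of a gene, can hold enhancers and the starts of shorter isoforms.

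The DNA at the strongest sites is shown first, because its content in G and A is described below. The windows reach 50 bp to each side of the summit on the forward strand of ce11 (WBcel235, RefSeq sequence). They belong to the 8 genes with the strongest intronic peaks. Capitals mark the repeat GAGAGA, the E-box CACGTG and the word GACGCAGA, on either strand, and the windows of zfp-1 and ccch-1 hold none of them.
pqn-41, intron 1, chrIII:1921399-1921499: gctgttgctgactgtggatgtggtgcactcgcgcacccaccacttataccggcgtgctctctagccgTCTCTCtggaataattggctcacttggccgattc
Y111B2A.12, intron 4, chrIII:12612589-12612689: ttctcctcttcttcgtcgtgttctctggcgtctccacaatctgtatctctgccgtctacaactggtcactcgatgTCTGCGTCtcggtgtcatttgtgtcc
epg-9, intron 2, chrIV:2602128-2602228: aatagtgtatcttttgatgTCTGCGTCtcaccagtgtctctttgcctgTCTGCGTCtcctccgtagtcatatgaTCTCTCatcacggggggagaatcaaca
zfp-1, intron 1, chrIII:8795826-8795926: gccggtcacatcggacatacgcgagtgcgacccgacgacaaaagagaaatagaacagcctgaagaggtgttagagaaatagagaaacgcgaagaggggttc
Y43F8B.2, intron 3, chrV:19529345-19529445: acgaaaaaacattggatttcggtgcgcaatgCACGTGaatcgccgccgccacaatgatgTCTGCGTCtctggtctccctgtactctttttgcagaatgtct
nhr-19, intron 1, chrII:9603589-9603689: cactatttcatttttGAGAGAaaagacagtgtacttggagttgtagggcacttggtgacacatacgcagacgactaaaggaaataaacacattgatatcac
ccch-1, intron 3, chrV:11531192-11531292: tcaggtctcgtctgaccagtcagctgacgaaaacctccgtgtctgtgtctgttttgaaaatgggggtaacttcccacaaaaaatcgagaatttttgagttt
mnk-1, intron 1, chrII:10552101-10552201: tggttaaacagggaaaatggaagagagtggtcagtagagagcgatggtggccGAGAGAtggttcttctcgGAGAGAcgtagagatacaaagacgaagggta

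The second set shows what Rev-Erb-like sites looked like in these peaks. Capitals mark the core TAGGTCA or TGGGTCA on either strand. The windows are those of the strongest members that hold it, with sites on the first autosome not printed.
unc-50, intron 1, chrIII:10316839-10316939: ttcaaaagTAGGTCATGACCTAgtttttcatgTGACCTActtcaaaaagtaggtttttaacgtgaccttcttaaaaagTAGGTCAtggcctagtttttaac
cpna-1 and mth-1, intron 1, chrII:4202770-4202870: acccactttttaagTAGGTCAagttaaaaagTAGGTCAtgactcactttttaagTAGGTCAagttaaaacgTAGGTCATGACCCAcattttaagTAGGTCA
D2023.1, intron 9, chrV:11796488-11796588: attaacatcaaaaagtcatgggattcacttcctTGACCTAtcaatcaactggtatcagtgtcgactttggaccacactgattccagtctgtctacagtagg
cpna-1 and mth-1, intron 1, chrII:4202970-4203070: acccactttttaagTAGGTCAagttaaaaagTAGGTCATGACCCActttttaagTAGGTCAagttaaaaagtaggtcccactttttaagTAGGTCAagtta
The core stood in 4 copies in the unc-50 window and in 6 and 5 copies in the windows of cpna-1 and mth-1. In D2023.1 it stood alone.

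Introns held a larger share of the strongest 25 autosomal peaks than of all autosomal peaks, in large part through the gene pqn-41. Of the strongest 10 autosomal peaks 4 were intronic, and of the strongest 25 there were 9 (36%, Wilson interval 20.2 to 55.5), against 11.5% of all autosomal peaks. The replicates alone gave 8 and 9 of their strongest 25. The gene pqn-41 accounted for 4 of the 9 in the pooled list. Outside pqn-41 there were 5 intronic peaks in the strongest 25 and 1 in the strongest 10, and no interval was computed without that gene. The intervals count neighbouring peaks of 1 intron as independent, which they are not. Of the strongest 100 peaks 16 were intronic (16%, 10.1 to 24.4). Ranks 26 to 314 held 26 of 289 (8.997%, 6.21 to 12.9). The 5 further bins of about that size held between 10.2% and 12.7%, so any excess lay in the strongest 25 peaks. Among autosomal pooled peaks that missed the IDR threshold 786 of 4885 were intronic (16.1%, 15.1 to 17.1).

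All 4 of the pqn-41 peaks lay in a single intron of 7776 bp. The gene encodes a glutamine-rich protein needed for the death of the male linker cell. The strongest peak (chrIII:1921181-1921679) had a signal, in the peak caller's own units, of 1094 in replicate 1 and 1138 in replicate 2. The next (chrIII:1925018-1925574) had 1015 and 1075. The remaining pair had 657 and 565 (chrIII:1923501-1923895), and 634 and 513 (chrIII:1926425-1926755). All 4 were thus above 500 in both replicates, while the median intronic peak had 83.7 in replicate 1 and 86.02 in replicate 2. No peak was found in a promoter of pqn-41. However, the peak at chrIII:1926425-1926755 lay 1081 bp upstream of a pqn-41 start, just outside the 1000 bp promoter limit.

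Other strong sites lay in genes of several kinds. Y111B2A.12 held the third strongest intronic peak (chrIII:12612415-12612867), with signals of 880 and 913 in the replicates. An intron of epg-9, whose product acts in the start of autophagy, held a peak (chrIV:2602017-2602351) of 510 and 488. In zfp-1, which encodes a chromatin regulator related to human AF10, the first intron held a peak (chrIII:8795671-8796049) of 496 and 457. The peak of Y43F8B.2 (chrV:19529230-19529558) had 479 and 458. For each of these peaks the replicates differed by less than 1.5-fold. A weaker peak of Y111B2A.12 (chrIII:12615074-12615503) had 34.1 in replicate 1 and 78.6 in replicate 2.

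The nuclear receptor gene nhr-19 held a peak (chrII:9603440-9603781) of 455 in replicate 1 and 457 in replicate 2. The zinc finger gene ccch-1 held one (chrV:11531024-11531443) of 386 and 395. In mnk-1, the gene of a kinase that acts on the cap-binding initiation factor in mammals, the peak (chrII:10551951-10552299) had 348 and 393. The fatty acid synthase gene fasn-1 had 315 and 329 (chrI:8985928-8986248). Among the strongest 25 were also klf-1, a Krüppel-like factor (257 and 263), sms-1, a sphingomyelin synthase (199 and 184), let-607, a bZIP factor (183 and 195), and let-526, a subunit of the SWI/SNF remodelling complex (192 and 185). The others of the 25 were in Y48C3A.5, pkg-2 (2 peaks), D2023.3, T28F4.1, Y56A3A.7, gei-4, M01H9.3 and Y53G8AM.8.

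As a class, intronic peaks had about the same median signal as promoter peaks. The pooled signal ran from 97.2 to 2228 with a median of 165 (quartiles 121 and 238), against a median of 163 in 1321 autosomal promoter peaks and 154 in 326 distal intergenic peaks. The order of the promoter and intronic medians was not the same in both replicates, with 85.2 against 83.7 in replicate 1 and 84.7 against 86.02 in replicate 2. Intronic peaks on X (64 peaks) had a pooled median of 156. The median width was 430 bp in all of these classes. At the lower end, the weakest members were at 97.2 in spsb-1, 97.8 in unc-52 and 97.9 in saeg-1. The strongest pooled autosomal intronic peaks just below the threshold had 97.1 in toh-1, 97.1 in W05B5.1 and 96.6 in smg-3. At the promoter edge, the nearest members lay 208 bp downstream of the start of ZK973.23, inside anc-1, and 209 bp downstream of that of wdr-23. The nearest intronic summit left out lay just under 1000 bp upstream of a start of nhr-62, and 221 promoter peaks in all also lay in an intron.

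All 216 members overlapped a peak in both replicates, as did 2403 of 2404 peaks of the whole list (100% after rounding), which IDR selects for reproducibility. For 185 (85.6%, Wilson interval 80.3 to 89.7) a peak among the strongest 2404 was met in both, which was so for 84.1% of all IDR-thresholded peaks. Both shares of members were thus close to the background. The 216 members met 210 distinct peaks of each replicate, since 12 of them shared a replicate peak with a neighbour. Across members, log2 signals in the replicates gave a Pearson r of 0.909 and a Spearman rank correlation of 0.836, and since all members share the same pair of libraries no p is given. Without the 4 peaks of pqn-41, r was 0.885.

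The ratio of replicate 2 to replicate 1 had a median of 1.02, and 24 of 216 members differed by more than 1.5-fold, as did 260 of 2403 peaks overall. Both extremes of the whole list were intronic. A peak in the first intron of K10C3.4 (chrI:9854425-9854854) had 91.9 in replicate 1 and 27.1 in replicate 2, where the overlapping peak met it in part only (reciprocal overlap 0.223). A peak in the first intron of somi-1, a zinc finger gene studied with microRNAs of larval development (chrV:13390985-13391139), had 32.6 and 104. Ratios over 2 in either direction were found in 6 members, also including atf-7, the gene of a bZIP factor of the stress response, with 39.5 and 86.1. None of the 25 strongest was among them.

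**Figure D1:**
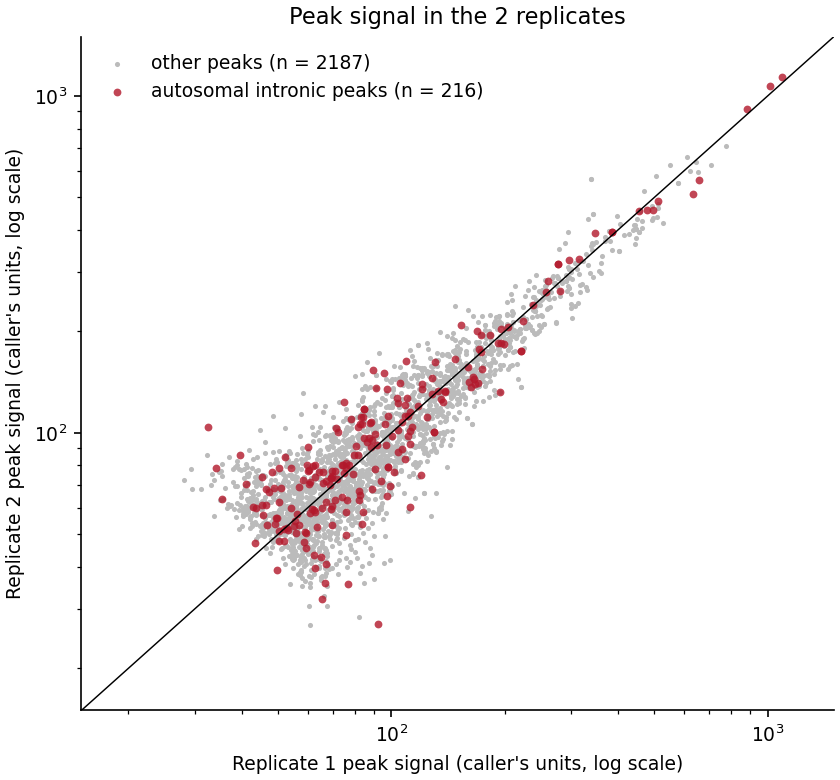
Each point is a peak of the IDR-thresholded list, with the signal of its strongest overlapping peak in replicate 1 (x axis) and replicate 2 (y axis), both in the peak caller's units on log scales, and red marks the 216 autosomal intronic peaks. The strong peaks lie along the line of equality, 3 of them near 1000 in both replicates, and the spread is widest below 100.

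Density showed where in genes the sites lay. It was counted over eligible sequence, meaning every autosomal base that the rule would have accepted, which was 19.4 Mb. Over all of it there were 11.1 members per Mb (exact Poisson interval 9.70 to 12.7). Intronic sequence was less dense in peaks than autosomal promoters (40.7 per Mb) and distal intergenic sequence (24.8), and denser than exons (1.31). Intronic peaks on X had 16.7 per Mb (12.8 to 21.3). All these intervals cover counting error only, and neighbouring peaks are not independent.

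First introns stood out on the autosomes. They held 106 of the 216 members in 25.9% of the eligible sequence, which gave 21.1 per Mb (17.3 to 25.5). Density was 8.69 per Mb in the second introns, 6.68 in the third and 7.55 in later ones, and the intervals of these 3 classes overlapped. The ratio of first to all later introns was 2.75 (interval 2.09 to 3.63). With 1 member per host gene, a choice made after seeing the data, it was 2.40 (1.73 to 3.31). First introns are also longer, so the split was repeated by length. In introns of 2000 bp or more the density was 39.6 per Mb in first and 19.9 in later introns, with intervals of 31.6 to 48.9 and 15.1 to 25.8. In shorter introns it was 7.002 and 4.61, and the intervals overlapped. On X, first and later introns of 2000 bp or more had 34.7 and 34.6 per Mb, and shorter ones 10.5 in both classes, from 64 peaks only. The difference between X and the autosomes was not tested.

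Long introns were denser in sites than short ones. Density rose from 2.998 per Mb in introns under 500 bp to 8.72 from 1000 to 2000 bp, 19.2 from 2000 to 5000 bp and 42.2 from 5000 to 10000 bp. It was 38.3 in introns of 10000 bp or more, which did not differ from the class before beyond the intervals. Introns of 5000 bp or more thus held 87 members, 63 and 24 in the 2 classes, in 10.9% of the eligible sequence. The median host intron was 3649 bp long. When each host intron was cut into 3 equal parts, 75 members lay in the first, 90 in the middle and 51 in the last part.

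Density also varied with the distance from starts. The nearest coding start lay at a median of 1677 bp, and it belonged to the host gene in 184 of 216 cases. Density was 15.2 per Mb from 1000 to 2000 bp off a start and 14.3 from 2000 to 3000 bp, and it was 9.41 from 3000 to 5000 bp and 6.76 at 5000 bp or more. Closer than 1000 bp it was 6.97 (4.91 to 9.61), where all eligible sequence lies downstream of the start. Downstream sequence from 1000 to 2000 bp had 11.7 (8.71 to 15.4), and these 2 intervals overlapped. Density also differed by side. Members upstream of the nearest coding start had 21.3 per Mb (16.96 to 26.4), and those downstream of it 8.58 (7.19 to 10.2). The upstream value was higher in each of the 4 distance classes from 1000 bp on, for example 24.2 against 11.7 from 1000 to 2000 bp. The intervals of the 2 sides overlapped in the other 3 classes. The splits by distance and by side were not repeated by intron length, with which density also varied. There were 83 upstream members, and for 65 of them the start was that of another, shorter transcript of the host gene itself.

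Chromosomes II, III and IV had 14.7, 13.5 and 12.4 members per Mb, and V and I had 8.64 and 7.84. The intervals of II and I did not overlap by a narrow margin (10.9 to 19.4 and 5.49 to 10.8). With each autosome cut into 3 equal parts, the central parts had 19.9 per Mb (16.2 to 24.2) and the outer parts 8.12 (6.71 to 9.73). Neither split was repeated by intron length.

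**Figure D2:**
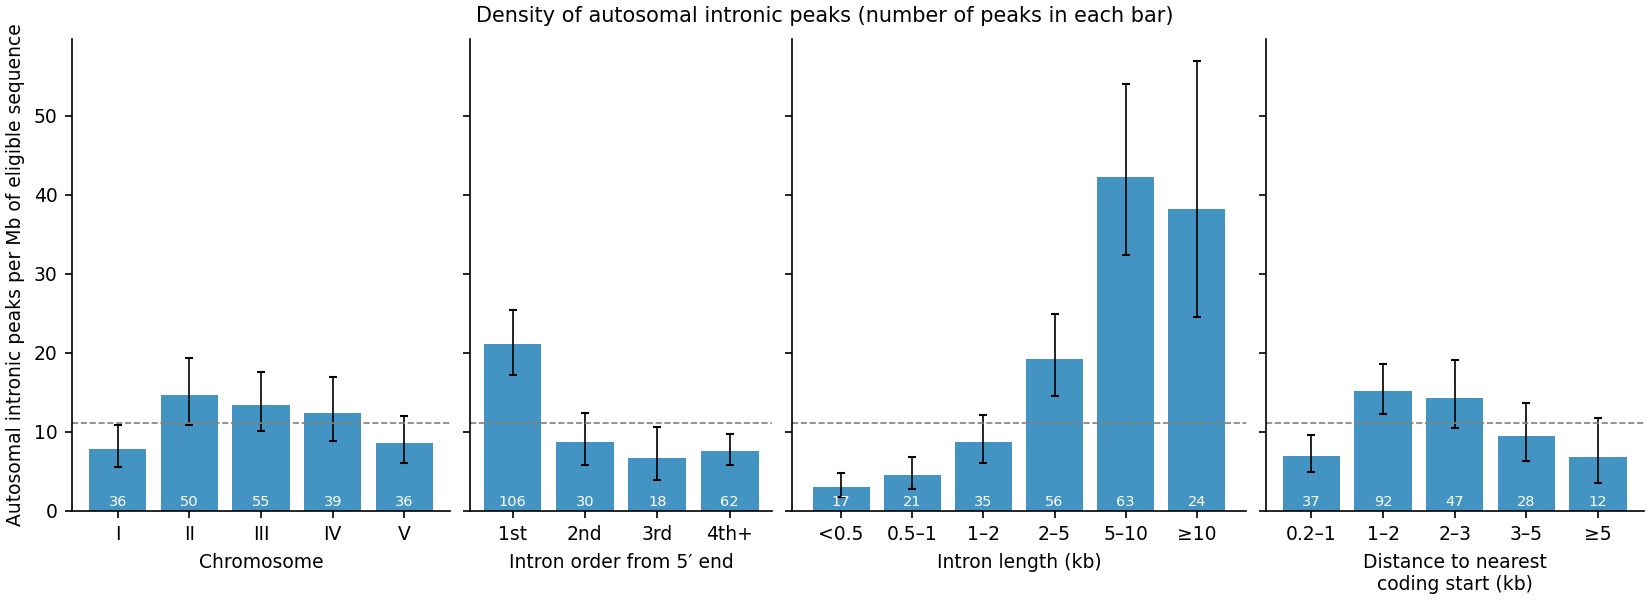
Bars give autosomal intronic peaks per Mb of eligible intronic sequence (y axis) by chromosome, intron order, intron length and distance to the nearest coding start, with exact Poisson 95% intervals, the number of peaks in each bar and the value over all eligible sequence as a dashed line at 11.1. First introns (21.1) and introns of 5 to 10 kb (42.2) stand highest in their panels.

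Host genes were few and some held several sites. The 216 members lay in 162 genes, 1.15% of the 14111 autosomal coding genes with eligible intronic sequence. A single member was found in 125 hosts, 2 in 25, 3 in 7 and 4 in 4, and pkg-2 had 7. Genes with 2 or more held 92 members (42.6%). Neighbouring members of 1 gene were a median of 1366 bp apart.

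In pkg-2, a gene of a cyclic GMP-dependent protein kinase, all 7 members lay in the fourth intron, of 6824 bp. The strongest (chrIV:8529080-8529372) had 277 in replicate 1 and 318 in replicate 2, and the second (chrIV:8527552-8527981) had 222 and 175. The weakest pooled signal of the 7 was 100.98. Of these 7, 3 pairs of neighbours shared the same replicate peaks, so each replicate list showed 4 peaks there. The clusters of pkg-2 and pqn-41 differed in strength, since every pqn-41 site exceeded every pkg-2 site in both replicates.

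The remaining hosts with 3 or 4 members ranged from nutrient regulators to enzymes. In hlh-30, the worm homologue of TFEB, a regulator of autophagy and lysosome genes, 4 members lay in 2 introns with pooled signals from 108 to 309, the strongest with 163 in replicate 1 and 137 in replicate 2. The forkhead gene daf-16, the FOXO factor of the insulin pathway, had 3 members, of 211, 161 and 103.5, the strongest with 111.7 in replicate 1 and 102 in replicate 2. The Ski-related gene daf-5 of the dauer TGF-beta pathway had 244, 192 and 129, all in a first intron of 14446 bp, and the strongest had 89.6 and 154 in the replicates. Each of these 3 genes had members upstream of 1 of its own starts and members downstream of another.

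For ccch-1 the 4 pooled signals ran from 106 to 775, for zfp-1 the 3 ran from 222 to 951, and for nhr-19 from 188 to 915. The ccch-1 members of 775 and 172 shared a single peak in each replicate, of 386 and 395. The ccch-1 member of 106 met replicate peaks of 281 and 263 in part only (reciprocal overlap 0.284 and 0.370). The phosphatidylserine decarboxylase gene psd-1 had 312, 201 and 101.1. The gene spsb-1, which encodes a SOCS box protein, had 4 members between 97.2 and 212. The splicing-related gene cwf-19L2 had 3 between 125 and 237. In unc-50, whose product is needed for the transport of acetylcholine receptors, 3 members of 225, 113 and 100.5 lay within a repetitive intron, in which 63.6%, 21.5% and 0% of the 31-mers of the peaks were found once in the genome. Values there are uncertain, since reads could have come from other copies.

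**Figure D3:**
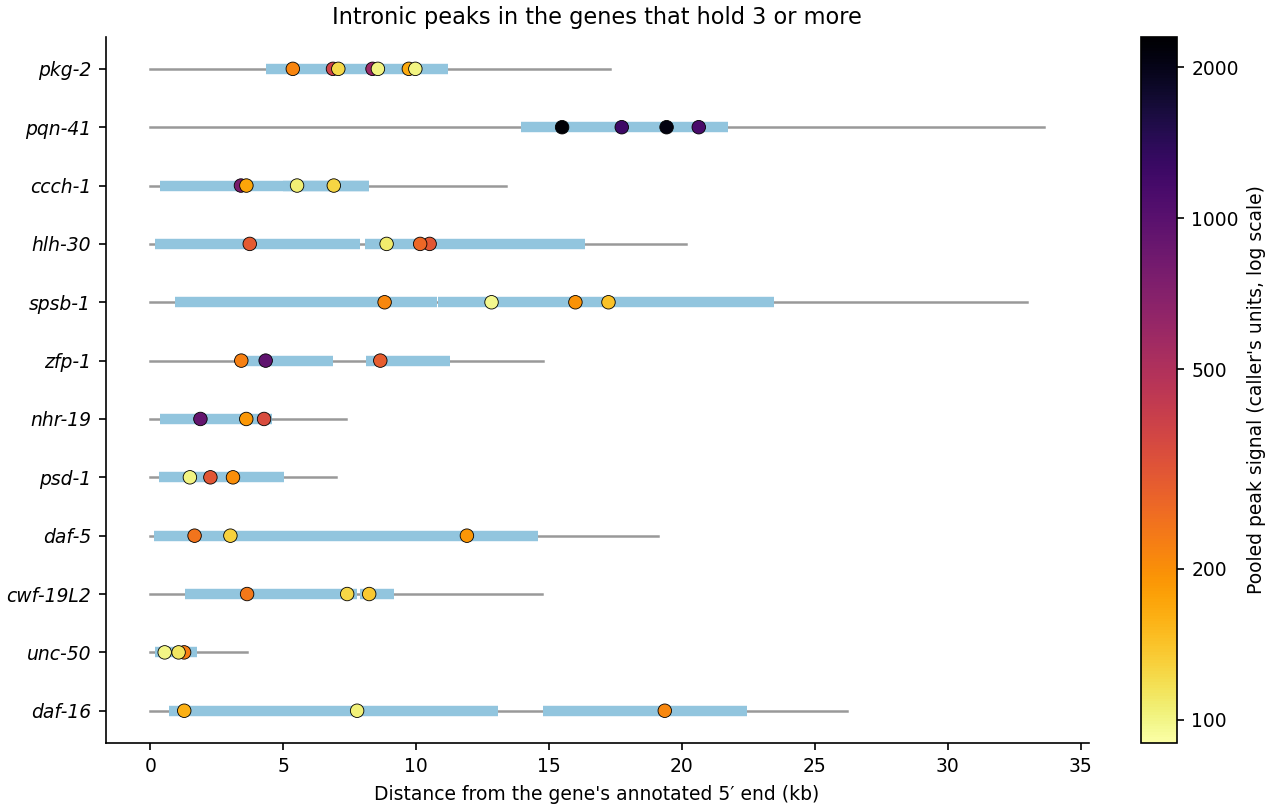
Each grey line is 1 of the 12 genes with 3 or more members, drawn from its annotated 5′ end (x axis, kb), with the introns that hold members in blue and each member as a point coloured by its pooled signal on a log scale. The 4 points of pqn-41 are the darkest, at 1144 or more, and 7 points of pkg-2 lie in 1 intron.

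Genes with an intronic site often had a promoter site too. A promoter peak was present at 62 of the 162 hosts (38.3%, Wilson interval 31.1 to 45.9), where 7.56% of all genes with eligible sequence had one. Hosts are long, so other genes with at least the median eligible sequence of hosts were counted, and 97 of 912 (10.6%, 8.80 to 12.8) had one. These genes were not matched for the number of annotated starts, and each start adds a promoter. Among the strong hosts, Y43F8B.2 had a promoter peak of 811, zfp-1 of 637 and ccch-1 of 598. None was found for pqn-41 or epg-9. With 500 bp promoters the share of hosts was 27.9% and with 2000 bp it was 47.2%.

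Gene lists of transcription factors and signalling pathways gave small numbers. Of 238 nuclear receptor genes with eligible sequence, 5 were hosts (2.10%, 0.901 to 4.82), against 1.15% of all genes, which that interval included. The hosts were nhr-19, nhr-34 (171 in replicate 1 and 177 in replicate 2), nhr-46 (121 and 135), nhr-21 and nhr-23. Their 8 members, 3 of them in 1 intron of nhr-19, gave 33.4 per Mb (14.4 to 65.8), where all genes gave 11.1. The nhr-23 site (chrI:7217273-7217702), 704 bp downstream of its nearest start, was weak, with 66.9 and 72.1. Homeobox genes had 0 hosts of 67, with an upper bound of 26.9 per Mb.

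MAP kinase and TGF-beta genes had 5 hosts of 32, against 1.15% of all genes. They had 74.8 members per Mb (32.3 to 147), where all genes gave 11.1. Besides mnk-1 and daf-5 these were the MAP kinase phosphatase gene vhp-1 (113 in replicate 1 and 104 in replicate 2 for its stronger site), the Smad gene daf-14 (71.4 and 103.3) and the Nemo-like kinase gene lit-1 (69.0 and 59.3). Insulin and nutrient genes had 3 hosts of 19, namely hlh-30, daf-16 and the TOR kinase gene let-363 (75.7 and 58.4), with 72.7 per Mb (31.4 to 143). Both lists rested on genes with several members, and both were described with earlier results of these data known. The lists were not matched for intron length. All genes had 42.2 per Mb in introns of 5000 to 10000 bp, which is inside the intervals of both lists.

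The remaining lists are also to be read against the 1.15% of all genes that were hosts. Chromatin genes had 2 hosts of 40, zfp-1 and let-526. Heterochronic protein genes had 2 of 10, sea-2 (88.7 and 67.99) and nhr-23. The bHLH, RNA-binding and cell death lists had 1 host each, hlh-30 of 26 genes, asd-2 of 35 and pqn-41 of 16. Potassium channels had 2 of 47, twk-34 and twk-4. Ligand-gated channels had 2 of 73, glr-4 and lgc-55. Axon guidance genes had 2 of 39, vab-1 and unc-52, cytoskeletal genes 2 of 32, anc-1 and dys-1, and calcium and G protein genes 2 of 34, pde-4 and kin-1. Cuticle collagens had 1 of 90, col-159. Ribosomal protein genes had 0 of 24. Chemoreceptor genes had 0 of 1186 with 0.692 Mb of eligible sequence, an upper bound of 5.33 per Mb. All genes had 2.998 per Mb in introns under 500 bp and 4.50 from 500 to 1000 bp, both below that bound.

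The DNA under the summits was rich in GA repeats. GAGAGA, read as TCTCTC on the other strand, was found in 70 of 216 windows of the summit and 50 bp to each side (32.4%, Wilson interval 26.5 to 38.9). Of 161401 windows tiled over all eligible intronic sequence, 3.8% held it, and of the 432 windows 500 bp to each side of the members 6.48% did. The difference from tiled windows was 28.6 percentage points (Newcombe interval 22.7 to 35.1). Among the strongest 25 members 13 held it. Members with it had a median signal of 93.0 in replicate 1 and 107 in replicate 2, and those without it 81.8 and 79.3. In the sequences printed above it stands in the windows of pqn-41, epg-9, nhr-19 and mnk-1.

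The repeat was also frequent in the other classes of peaks. Distal intergenic peaks held it in 36.5%, promoter peaks in 22.5% and X intronic peaks in 21.9% of windows. Among all 2080 words of 6 letters, the 10 with the largest difference between members and tiled windows were all of this kind, with 8 made of G and A alone on 1 strand. The other two, AGAGAC and the word CAGAGA, had a single C each. The members chose these words, so their shares are a description. In X intronic windows, which were not used in the choice, 9 of the 10 were above tiled X windows with an interval that did not reach 0, and CTTCTC was not (1.55 points, −2.25 to 10.3). The words overlap each other, so the same windows can hold several of them and the 9 are not independent.

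A longer word stood in several of the strongest sites. Among words of 8 letters, chosen after the windows were read, GACGCAGA was the first in order of difference that was not built of G and A alone. It was in 14 of 216 members (6.48%), where 0.613% of tiled windows held it, and in 5 of the strongest 25. The printed windows of Y111B2A.12, epg-9 and Y43F8B.2 hold it, in epg-9 in 2 copies. In classes not used to choose it, distal intergenic windows held it in 10.4% and promoter windows in 7.87%. On X it was in 1 of 64 intronic windows (1.56%), and the interval of the difference from tiled X windows was −0.0112 to 8.05 points.

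The E-box CACGTG, a site of bHLH factors, had the next highest ratio to the background among the 15 motifs searched. It was in 25 windows (11.6%, 7.96 to 16.5), where 1.37% of tiled windows held it, a ratio of 8.44. The windows of Y43F8B.2, nhr-34 and D2023.3 hold it. The core of the cyclic AMP response element, TGACGT, was in 8.80% of members, where 2.53% of tiled windows held it. TGATAA, the GATA factor site, was in 11.1% against 8.03%, and the interval of the difference (−0.451 to 7.97 points) included 0. In windows of 35 to 50% GC, compared after seeing the data, it was in 11.03% against 5.30%, a difference of 5.73 points (1.60 to 11.9). The homeodomain core TAATTA was in 1.39% against 5.19%, and a run of 8 A in 6.02% against 21.5%.

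The other motifs searched were in few members. The E-box CAGCTG was in 8 (3.70%) against 1.15% of tiled windows, and the E-box CACCTG in 7 (3.24%) against 1.53%. The forkhead site GTAAACA was in 6 (2.78%) against 0.863%, and the repeat GCGCGC in 7 against 0.916%. For these 4 the interval of the difference did not reach 0, with the lowest bound at 0.0470 points for CACCTG. For the AP-1 type site TGANTCA (6 members, 1.91% of tiled windows) and the GC box CCCGCC (7 members, 2.39%) it included 0. The bZIP site TTACGTAA was in 0 members and 0.088% of tiled windows.

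The receptor element AGGTCA was in 19 members (8.80%, 5.70 to 13.3), where 2.17% of tiled windows held it. Distal intergenic peaks had 8.90%, X intronic peaks 9.38% and promoter peaks 5.15%. Members with AGGTCA had a median pooled signal of 115.01, and those without it 170.4. None of the strongest 25 members held it. Member and tiled windows were also both limited to 95% or more unique 31-mers, a choice made after seeing the data. There, 14 of 205 members (6.83%) held AGGTCA, against 2.18% of tiled windows, a difference of 4.64 points (1.93 to 8.95). The core TAGGTCA or TGGGTCA, of which the first contains that element, was in 11 members (5.09%, 2.87 to 8.89), where 1.34% of tiled windows held it. Promoter peaks had 0.984%, and X intronic peaks 0 of 64. The interval of the difference from tiled windows was 1.53 to 7.55 points in members and −0.768 to 0.338 in promoter peaks. The tiled windows are intronic and no background of promoter sequence was made. Whether promoter peaks exceed promoter sequence in this core was thus not tested. The difference of 3.75 points in members was 1.99 (0.283 to 5.38) when replicate 1 was left out and 1.90 (0.237 to 5.197) when replicate 2 was.

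These 11 members lay in 8 genes or gene pairs, and 5 of them lay in sequence with under 95% unique 31-mers, the unc-50 and cpna-1 and mth-1 repeats. Both cpna-1 and mth-1 windows belong to 1 repeat array and share a single peak in each replicate, of 84.5 and 118. With member and tiled windows both limited to those of 95% or more unique 31-mers, a choice made after seeing the data, 6 of 205 members held the core (2.93%) against 1.31% of tiled windows. The difference was 1.62 points with an interval of 0.0375 to 4.93. The unique ones lay in D2023.1, tre-1, gst-40, kin-1, cnt-2 and saeg-1. Their pooled signals ran from 97.9 to 169, and none was among the strongest 25 members.

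GC content rose towards the summit. The median over member windows was 41.6%, against 31.7% in tiled windows and 34.7% in the windows 500 bp away, and 167 of 216 members were above the mean of their own flanks. Distal intergenic peaks had 42.6%, promoter peaks 45.5% and X intronic peaks 42.1%. GC content can change the share of any motif by composition, so windows of 35 to 50% GC were compared, a choice made after seeing the data. There, GAGAGA was in 34.5% of members and 5.92% of eligible windows, CACGTG in 11.03% and 2.77%, and AGGTCA in 9.66% and 3.098%. The deficits of TAATTA and of the A run were smaller there, and their intervals included 0.

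**Figure D4:**
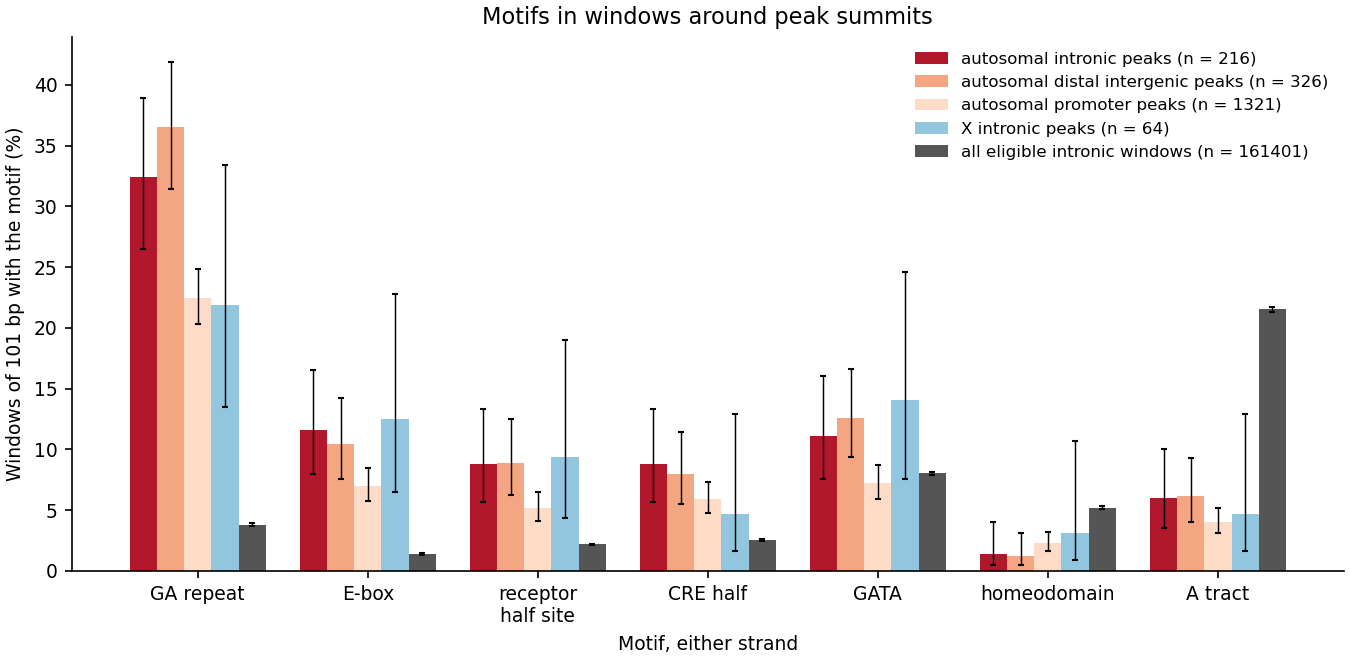
Bars give the percent of summit windows that hold each motif (y axis) in autosomal intronic, distal intergenic, promoter and X intronic peaks and in all eligible intronic windows, with 95% Wilson intervals. The GA repeat is in 32.4% of intronic peak windows and 3.8% of eligible windows, and the A tract has the largest deficit in percentage points, at 6.02% and 21.5%.

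**Figure D5:**
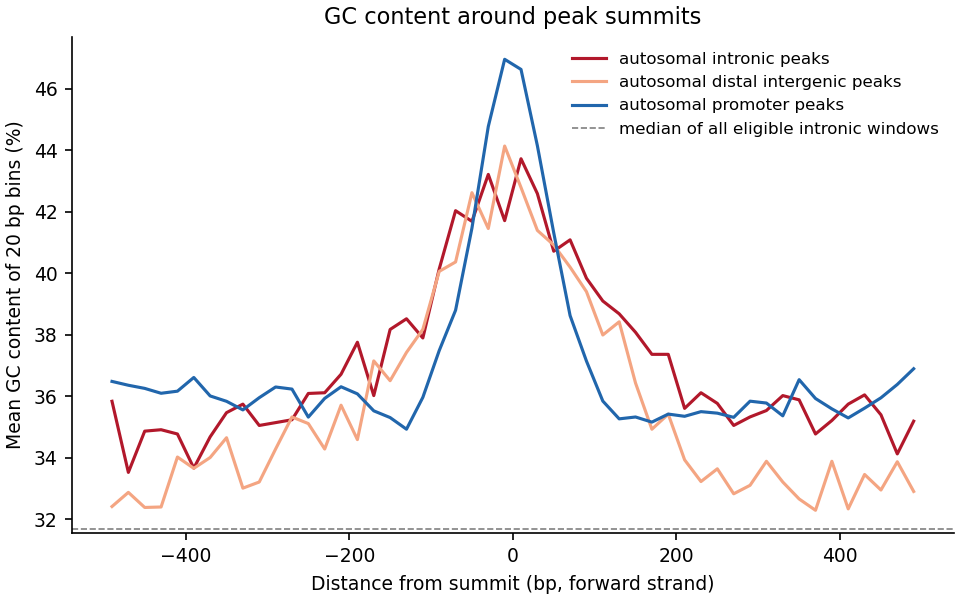
Lines give the mean GC content (y axis, percent, in bins of 20 bp) by distance from the summit (x axis, bp) for 3 classes of autosomal peaks, and the dashed line is the median of all eligible intronic windows. The intronic profile peaks at 43.7% beside the summit and is 35.8% and 35.2% at its ends.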

How the data were processed

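Peaks were called by the authors for each replicate and on pooled reads, against a control, and an IDR-thresholded list was made from them, per the labels and the files' descriptions. No source used here names the peak caller or aligner. The deposited signal of each peak is in the caller's own units, whether it is scaled to depth is not stated, and the p-value column is not filled. Lists in ce10 were not used here.

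Lines with the same interval were reduced to the stronger, and 2410 lines gave 2404 peaks. Genes came from Ensembl release 115 and sequence from RefSeq, both WBcel235. A summit in several introns was given to the shortest, and its order is the lowest over transcripts. Replicate values are those of the strongest peak overlapping by 1 bp or more. Uniqueness was measured with 31-mers as a stand-in for the read length, which no source used here gives. A total of 94.9% of members had 95% or more unique 31-mers, and 88.7% of eligible bases began one.

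The 15 motifs searched, on either strand, were those named in the text. Genes were named as hosts of the 25 strongest members, as hosts of 3 or more members, or as up to 3 hosts of each list, and the others named in the text were chosen after their values were seen. A total of 5 listed names were not found, and 1 list is not reported here. Members and lists were chosen with earlier results of these data known, so only counts, medians and intervals are given, with no test. Both samples formed 1 group. The density and motif steps were checked on simulated data. Python 3.11.15, numpy 2.4.6, pandas 2.3.3 and scipy 1.17.1 were used.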

Additional observations from a re-analysis of the deposited data

How the results depend on the processing

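No paired analysis was possible because both replicates belong to 1 group. No result changed direction under the alternatives run, except that the ratio of the intronic to the promoter median crossed 1. Causes of the changes were not tested where the alternative itself does not show them. The number of 216 peaks became 139 with 2000 bp promoters and 110 in the strongest 50% of the peaks, which is fewer by construction, and ran from 210 to 216 with 1 replicate left out. The share of 11.5% was 14.8% with coding starts only, 14.6% with 500 bp and 7.37% with 2000 bp promoters. The first to later intron ratio of 2.75 was 3.97 in the strongest 50% and ran from 2.33 to 2.75 with 1 replicate left out. That ratio was 2.27 (1.71 to 2.99) when a summit in several introns was given to the longest of them. Presence in both replicates fell from 100% to 88.0% at 50% reciprocal overlap and to 91.2% with summits within 100 bp. The ratio of the intronic to the promoter median of 1.01 ran from 0.982 to 1.02 with 1 replicate left out. The share of hosts with a promoter peak, 38.3%, was 27.9% with 500 bp and 47.2% with 2000 bp promoters, and ran from 37.7% to 40.8% with 1 replicate left out. The GC difference of 9.90 points was 11.8 with 25 bp and 8.71 with 100 bp to each side, and ran from 8.91 to 10.4 with 1 replicate left out. In the strongest 50% of the members the receptor core was 1.44 points above tiled windows (−0.392 to 6.51). It was 1.90 to 1.99 with 1 replicate left out, against 3.75. The TGATAA difference excluded 0 with 100 bp to each side (10.2), in replicate 1 alone (4.01) and in windows of 35 to 50% GC (5.73). The loci of nhr-85 and unc-119, with 40 kb to each side, held 0 members. Depth is unknown, so its limit on weak peaks cannot be given.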
